A study of Mus musculus with 30 samples.

Results

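Satellite cells of old mice that were freshly isolated from muscle were compared with satellite cells of old mice that were fixed in place. The comparison uses 4 of the 30 libraries of the series, chosen by their labels: the 2 libraries of freshly isolated old cells (oFISC) and the 2 of old cells fixed in situ (oQSC). All 30 libraries, in 15 groups of 2, are of muscle stem cells from skeletal muscle of C57BL/6 mice, and the series follows younger satellite cells from rest through injury and regeneration. The oQSC libraries carry no treatment and no time. The oFISC libraries are labelled with barium chloride (BaCl2) injury and with "freshly isolated" in place of a time, so whether these mice were injured is ambiguous in the labels. The 2 libraries of activated old cells (oASC), taken 2.5 days after BaCl2 injury, come from the same table and are used here only for reference. The series-wide protocol states BaCl2 injection into the hind limb and perfusion of the mice with paraformaldehyde before the cells were isolated. It makes no exception for oFISC, so a difference in fixation between the groups rests on the source names alone. In the oQSC libraries Fos was as high as in younger cells shortly after injury, Pax7 was lower than in uninjured younger cells and Myod1 higher, and whether the labels oQSC and oFISC are as intended cannot be told from the files. Each direction below is that of the libraries as labelled. The labels give no ages and do not say that replicates came from separate animals, so p-values measure only the spread between these libraries, which may be technical.

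Satellite cells are the stem cells of skeletal muscle. They lie between the fibre and its basement membrane, are quiescent in resting muscle under the control of Pax7 and of Notch signalling, and on injury enter the cell cycle, express Myod1 and fuse into new fibres. Taking them out of muscle takes enzymes, warmth and time, and is known to induce immediate early genes and stress genes. Fixation by perfusion is used to hold the transcriptome as it was in the tissue.

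The oQSC libraries held 44.8 and 47.2 M counts and the oFISC libraries 21.1 and 23.3 M. Reads assigned to 3 satellite repeat models (Gm10800, Gm10801 and Gm21738) made up 20.1% and 18.1% of the oQSC counts and 58.6% and 25.4% of the oFISC counts, which left 35.8, 38.7, 8.73 and 17.3 M counts on other models. More gene models had a count in the shallower oFISC libraries (42760 and 45441) than in oQSC (32426 and 33658). Over the 2000 most variable genes, the log2 CPM of the oQSC libraries correlated with r = 0.984 and that of the oFISC libraries with r = 0.958, across genes, which are not independent replicates. Between the groups r was 0.788 to 0.834, and no oFISC library reached more than 0.270 with an oASC library. Freshly isolated cells thus lay nearer to the fixed cells than to the activated cells, and each group was more like itself than like the other. The plot of the 6 libraries shows their depth, repeat share and number of detected models.

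**Figure D1:**
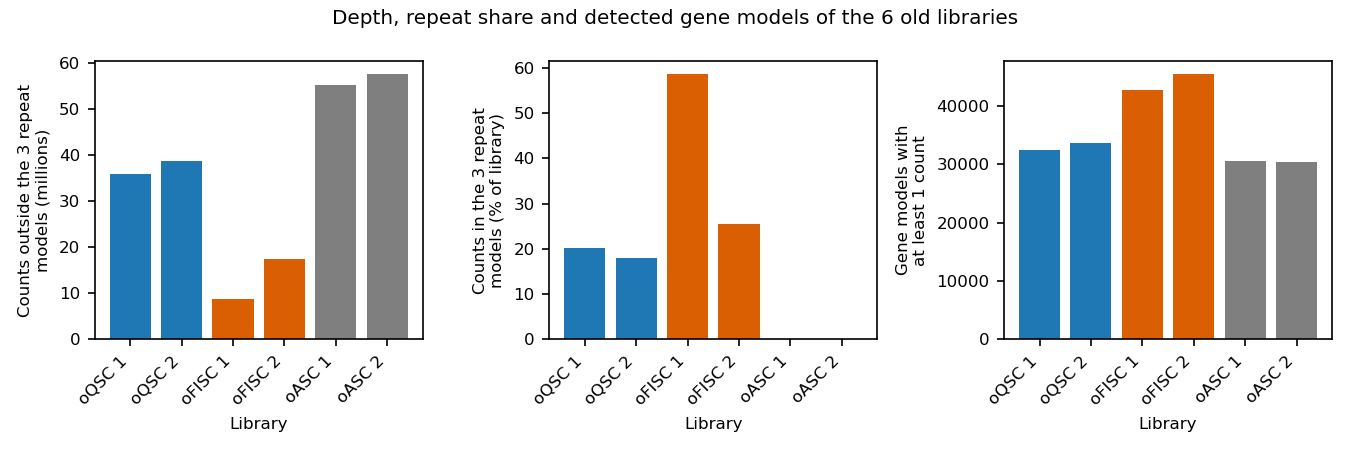
Counts outside the 3 satellite repeat models (in M), the share of counts in those models in percent, and the number of gene models with a count, with 1 bar per library of old cells. The 2 oFISC libraries have the fewest other counts (8.73 and 17.3 M), the highest repeat share (58.6% and 25.4%) and the most detected models (42760 and 45441).

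Of 30099 genes tested, 12607 (41.9%) differed between oFISC and oQSC at an adjusted p under 0.05 (edgeR quasi-likelihood F test, Benjamini-Hochberg). Of all genes, 19.3% were higher and 22.6% lower in oFISC, and the median log2 difference (oFISC minus oQSC, throughout) was 0.52. With the 3 repeat models removed, 12767 of 31486 genes passed, and 12405 of the 12607 were called in the same direction and 0 in the opposite one. The split of the calls moved with the scaling: 46.0% of the called genes were higher in oFISC with the TMM scaling used throughout and 56.8% with the RLE size factors, under which 0 genes changed their called direction. Fewer genes were called higher without any 1 of the 4 libraries: 1886 without oFISC 1, 2279 without oFISC 2, 2794 without oQSC 1 and 3494 without oQSC 2, against 5803 with all of them. The number called lower stayed between 5716 and 6114, against 6804.

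The direction followed the level and the length of the gene. CPM are counts scaled to 1 M by the library total times its TMM factor. Of 1382 protein-coding genes with a mean of at least 100 CPM over the 6 libraries, 73.0% were lower in oFISC and 3.47% higher. Their median was -1.38. Of 5954 protein-coding genes under 1 CPM, 29.2% were higher and 0.890% lower, with a median of 2.14. Long intergenic noncoding RNAs (median 2.11) and models of the class TEC, which await experimental evidence (1.90), also lay above the protein-coding genes (-0.03). Among 9556 protein-coding genes with a mean of at least 5 CPM, the median was -2.01 for exon lengths under 1000 bases and -0.31 for those over 8000, and the difference correlated with log2 exon length (Spearman rho 0.404 over 9556 genes, which share the same libraries). Short and abundant genes were thus lower in oFISC, and rare and noncoding models that passed the filter higher. The filter keeps a gene that is expressed in the libraries of 1 group alone, and the mean CPM includes oFISC. Rare models could thus be tested because they were high in oFISC. The part of length, level or filter in any single gene's difference was not tested.

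Because of this shift, each gene was read in 3 fits, of which the second and the third were chosen after seeing the data. The first covers all genes. The second is scaled on the 9556 well-expressed protein-coding genes alone (61.4% called, 30% higher and 31.4% lower, median -0.02), and the third adds a correction for exon length (54.7% called, 26.5% higher and 28.2% lower), which brought the correlation with length to rho 0.010. In all 3 fits, 2227 genes (23.3%) were lower and 729 (7.63%) higher. Values without a fit named are from the first. There, "rose" and "fell" mean an adjusted p under 0.05, and the other 2 fits are named for the genes and lists described where they change a call or a direction. Counts of a list in a fit are to be read against the shares of that fit, which are 22.6% lower and 19.3% higher in the first. The text gives log2 differences with their standard errors.

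**Figure D2:**
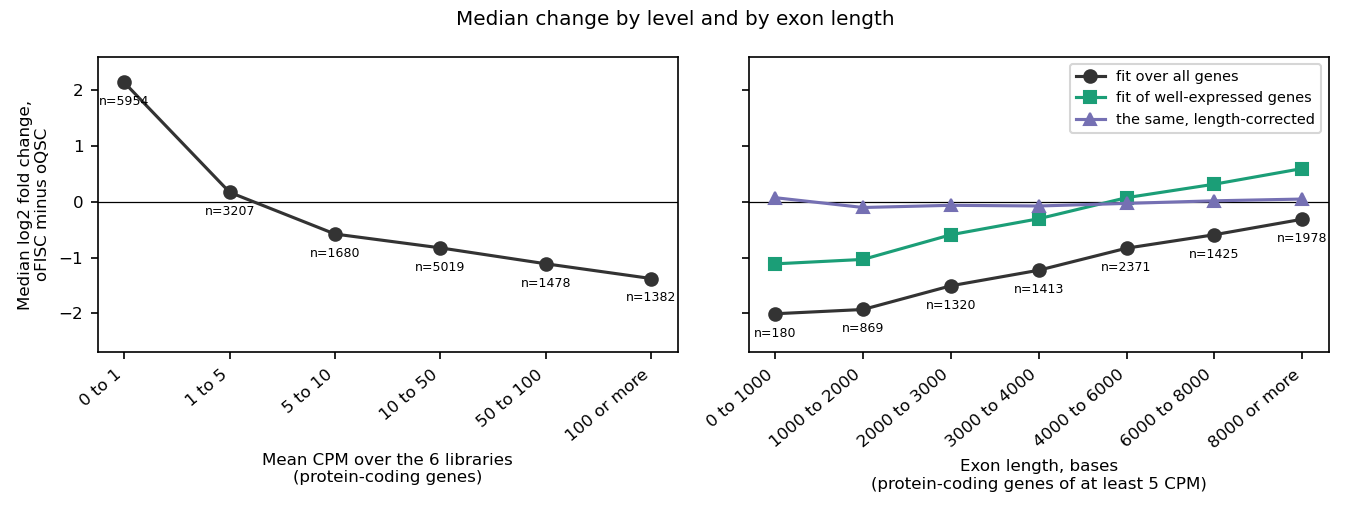
Median log2 difference, oFISC minus oQSC (vertical axes), of protein-coding genes by mean CPM (left) and of well-expressed protein-coding genes by exon length in bases (right), with the number of genes at each point. In the fit of all genes the median falls from 2.14 under 1 CPM to -1.38 at 100 CPM and above, and goes from -2.01 to -0.31 with exon length, while the length-corrected fit stays near 0.

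**Figure D3:**
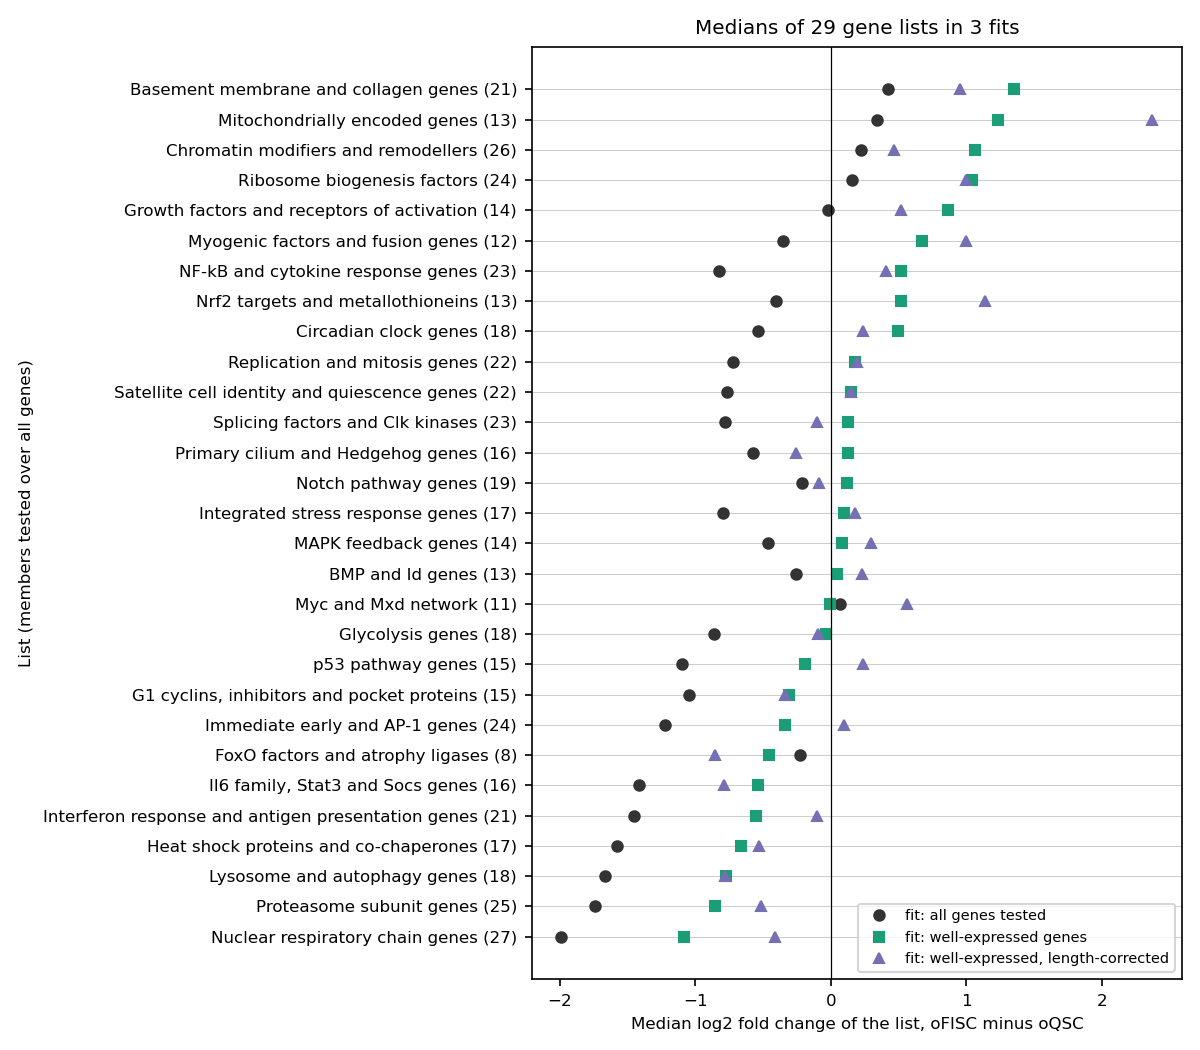
Median log2 difference, oFISC minus oQSC (horizontal axis), of the tested members of each gene list in the 3 fits, 1 mark per fit, with the number of members tested over all genes in parentheses. Among the pathway lists, nuclear respiratory chain, proteasome, lysosome and heat shock genes lie lowest in the fit of all genes (-1.99, -1.74, -1.66 and -1.57) and below 0 in all 3 fits, and basement membrane genes lie above 0 in all 3 (0.42, 1.35 and 0.95).

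Immediate early genes are induced within minutes of a stimulus without new protein synthesis. In the fit of all genes they were more often lower than higher in freshly isolated cells, compared with fixed old cells. Of 24 tested members of the list, 15 were lower and 2 higher (against 22.6% and 19.3% of all genes), with a median of -1.22. In all 3 fits 5 were lower (Btg2, Egr2, Klf6, Fosl2 and Nr4a2) and 2 higher (Jun and Fosb). Of 23 members in the well-expressed fit 7 were lower and 5 higher (median -0.34), and with the length correction 6 and 9 (0.10). Both the median of the list and the balance of its calls thus depended on the scaling. The promoters of Btg2 and Egr2 are printed because these members fell most among those lower in all 3 fits and because each holds a known early-response motif.
Btg2 (chr1:134079156-134079405, GRCm38, minus strand): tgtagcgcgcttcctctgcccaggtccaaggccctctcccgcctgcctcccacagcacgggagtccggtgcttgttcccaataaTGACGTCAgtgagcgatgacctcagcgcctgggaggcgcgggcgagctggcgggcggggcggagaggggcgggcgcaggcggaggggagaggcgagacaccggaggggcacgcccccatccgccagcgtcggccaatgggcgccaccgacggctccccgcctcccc
Egr2 (chr10:67537619-67537868, GRCm38, plus strand): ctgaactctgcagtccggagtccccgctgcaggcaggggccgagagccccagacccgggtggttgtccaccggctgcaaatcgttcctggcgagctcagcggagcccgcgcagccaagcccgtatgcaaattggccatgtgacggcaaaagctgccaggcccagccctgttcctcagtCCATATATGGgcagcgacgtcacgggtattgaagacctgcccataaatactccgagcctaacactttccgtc
Both are the 250 bases upstream of a RefSeq gene start, written 5′ to 3′ in the direction of the gene. Capitals mark a cyclic AMP response element (TGACGTCA), 158 bases before the start of Btg2, and a serum response element, 62 bases before that of Egr2. On either strand, the cyclic AMP element was in 2 of 21 early gene promoters (9.52%) and in 1.77% of 27025 promoters, and the serum response element in 3 of 21 (14.3%) and in 1.62%. The AP-1 site TGANTCA was in 0 of 21 and in 7.82%. No printed match overlapped one of another motif searched. A match is a description of the letters in this window only.

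Btg2, an antiproliferative early gene, read 2163 and 1946 CPM in the oQSC libraries and 252 and 193 CPM in the oFISC libraries, a log2 difference of -3.21 ± 0.25 (adjusted p = 9.9e-05). Egr2, a zinc finger factor, was at 139 and 203 CPM in oQSC and at 37.6 and 37.4 CPM in oFISC (log2 difference -2.19 ± 0.27, adjusted p = 0.00041). Klf6, another zinc finger factor, had 713 and 581 CPM in oQSC against 159 and 198 CPM in oFISC, with a log2 difference of -1.86 ± 0.23 (adjusted p = 0.00045). In each case both oFISC libraries lay below both oQSC libraries, with no overlap, as in 31.7% of all genes tested, while both lay above in 47%. The AP-1 subunit gene Fosl2 was at 314 and 297 CPM in oQSC and at 102 and 89.4 CPM in oFISC (log2 difference -1.67 ± 0.19, adjusted p = 0.00032). Its groups did not overlap either, and it stayed lower with the length correction (-1.23).

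Other early genes did not pass in every fit. Fos was at 2264 and 2408 CPM in oQSC and at 805 and 958 CPM in oFISC (log2 difference -1.41 ± 0.31, adjusted p = 0.0082). In the well-expressed fit its difference was -0.50 and with the length correction 0.10, neither past the threshold. Egr1 was at 2189.6 and 2983 CPM in oQSC and at 625 and 1125 CPM in oFISC (log2 difference -1.56 ± 0.32, adjusted p = 0.0063) and was also lower in the well-expressed fit (-0.67), but not with the length correction (-0.66). Ier2 had 1099 and 1359 CPM in oQSC against 261 and 409 CPM in oFISC, with a log2 difference of -1.87 ± 0.27 (adjusted p = 0.0010), with -0.07 after the length correction, where it was not called. Nr4a1, an orphan nuclear receptor, was at 294 and 605 CPM in oQSC and at 167 and 111 CPM in oFISC (log2 difference -1.69 ± 0.35, adjusted p = 0.0065). Atf3, a stress-induced factor, had 282 and 358 CPM in oQSC against 172 and 90 CPM in oFISC, with a log2 difference of -1.29 ± 0.32 (adjusted p = 0.014). Neither was called in the other 2 fits. In all 5 genes the groups did not overlap. Without oFISC 2 the difference of Nr4a1 was -1.30 and that of Atf3 -0.77, and neither passed, and without oQSC 2 they were -1.10, which passed, and -1.13, which did not.

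Jun and Fosb, partners in AP-1, went the other way. Fosb read 127 and 171 CPM in the oQSC libraries and 386 and 639.6 CPM in the oFISC libraries, a log2 difference of 1.78 ± 0.30 (adjusted p = 0.0024). Jun was at 111 and 211 CPM in oQSC and at 360.5 and 449 CPM in oFISC (log2 difference 1.33 ± 0.31, adjusted p = 0.011), and both oFISC libraries of either gene lay above both oQSC libraries. Without oQSC 1 Jun was 0.88 higher and not called. Junb differed more between the oQSC libraries than between the groups, at 139.7 and 785 CPM in oQSC and 789 and 687 CPM in oFISC, and its difference of 0.67 ± 0.61 (adjusted p = 0.38) became -0.14 without oQSC 1 and 2.38 without oQSC 2. Junb was called higher in the well-expressed fit (1.62, adjusted p = 0.047) and with the length correction (2.21, adjusted p = 0.022).

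Genes that feed back on mitogen-activated protein kinase (MAPK) signalling were split: 6 of 14 were lower and 3 higher, and in all 3 fits 3 were lower (Dusp1, Spry4 and Dusp8) and 2 higher (Dusp4 and Dusp5). Dusp1, a phosphatase that switches off p38 and JNK, was at 3991 and 3626 CPM in oQSC and at 381 and 651 CPM in oFISC (log2 difference -2.88 ± 0.32, adjusted p = 0.00026). Spry4, an inhibitor of receptor tyrosine kinase signalling, had 123 and 105 CPM in oQSC against 27.5 and 19.2 CPM in oFISC, with a log2 difference of -2.29 ± 0.23 (adjusted p = 0.00020). Both were several-fold lower in each oFISC library than in either oQSC library. Its relative Spry1, which satellite cells need to return to quiescence, was at 119.9 and 185 CPM in oQSC and at 67.8 and 71.5 CPM in oFISC (log2 difference -1.13 ± 0.26, adjusted p = 0.0097), but it was not called in the other 2 fits, nor without oFISC 2 (-1.04) or oQSC 2 (-0.81). Dusp5, a phosphatase of nuclear ERK, was higher in oFISC: it read 10.5 and 13.1 CPM in the oQSC libraries and 24.6 and 27.3 CPM in the oFISC libraries, a log2 difference of 1.14 ± 0.22 (adjusted p = 0.0044). Without oQSC 1, 1 member of the list in place of 3 was called higher. The call of Dusp4 was lost without oFISC 1 (0.93) and without oQSC 1 (0.84), from 1.16 ± 0.31 with all libraries.

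Heat shock proteins, chaperones that refold damaged protein, were nearly all lower in freshly isolated cells in the fit of all genes. Of 17 tested members, 16 were lower in oFISC and 0 higher, with a median of -1.57, and 6 were lower in all 3 fits. The median stayed below 0 in the well-expressed fit (-0.66) and with the length correction (-0.53). In the well-expressed fit 9 members were lower, and 5 without oQSC 1. With the length correction 8 were lower and 2 higher. The heat shock element (on both strands) was in 2 of 13 promoters of the list (15.4%) and in 0.514% of all.

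Hspa8, the constitutive Hsc70 and the most abundant member named here, read 13157 and 11594 CPM in the oQSC libraries and 1864 and 2456 CPM in the oFISC libraries, a log2 difference of -2.52 ± 0.31 (adjusted p = 0.00042). Cryab, a small heat shock protein of muscle, was at 786 and 671 CPM in oQSC and at 95.4 and 95.2 CPM in oFISC (log2 difference -2.93 ± 0.23, adjusted p = 9.9e-05). Dnajb1, the Hsp40 that works with Hsp70, had 3902 and 3731 CPM in oQSC against 734 and 274 CPM in oFISC, with a log2 difference of -2.92 ± 0.44 (adjusted p = 0.0012). No oFISC value reached an oQSC value in these genes, and all were lower in all 3 fits. The oFISC libraries were uneven in Dnajb1, whose difference was -3.82 without oFISC 1 and -2.25 without oFISC 2. Hspb1 and Hspe1 fell by 2.13 ± 0.24 and 2.11 ± 0.20 on the log2 scale, with adjusted p = 0.00028 and 0.00016, and with the length correction their differences were -0.08 and -0.22 and not called. The inducible Hsp70 gene Hspa1a was at 2731 and 4284 CPM in oQSC and at 1937 and 879 CPM in oFISC (log2 difference -1.32 ± 0.39, adjusted p = 0.028). It has a near-identical copy, so its counts are uncertain, and its difference was -2.02 without oFISC 1, and -0.73 without oFISC 2 and -0.98 without oQSC 2, where it was not called. It was not called in the other 2 fits.

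Targets of NF-kB and cytokine signalling were mixed. In the fit of all genes 9 of 23 were lower and 2 higher, with a median of -0.83. Of 19 in the well-expressed fit 5 were lower and 9 higher (median 0.52), and with the length correction 4 and 7 (0.41). The chemokines Ccl2 and Ccl7 and the apoptosis inhibitor Birc3 were lower in all 3 fits, and Nfkb2 and the chemokine Cxcl2 higher in all 3. The promoters of Nfkbia, which was lower in 2 of the 3 fits, and of Cxcl2 show that members on both sides carry the same motif.
Nfkbia (chr12:55492648-55492897, GRCm38, minus strand): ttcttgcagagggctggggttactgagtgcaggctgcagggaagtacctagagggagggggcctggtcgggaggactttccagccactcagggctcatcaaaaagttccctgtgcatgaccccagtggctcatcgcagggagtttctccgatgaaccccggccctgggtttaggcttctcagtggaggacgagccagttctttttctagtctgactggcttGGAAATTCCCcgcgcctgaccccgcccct
Cxcl2 (chr5:90903649-90903870, GRCm38, plus strand): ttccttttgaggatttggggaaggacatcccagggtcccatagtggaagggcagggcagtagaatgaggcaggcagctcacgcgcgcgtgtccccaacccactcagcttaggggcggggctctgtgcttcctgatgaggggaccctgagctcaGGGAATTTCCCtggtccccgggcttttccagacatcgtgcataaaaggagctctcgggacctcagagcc
Capitals mark NF-kB sites. The site of Nfkbia lies 19 bases before its RefSeq start, and Cxcl2 has a pair of overlapping matches, the nearest 86 bases before the start of the gene. The Cxcl2 window is 222 bases long, as it ends where an exon of the GENCODE M21 annotation begins. Matches were in 11 of 17 promoters of the list (64.7%) and in 8.23% of all 27025, and the list was made of known targets.

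Ccl7 was at 249.7 and 156 CPM in oQSC and at 18.1 and 18.1 CPM in oFISC (log2 difference -3.48 ± 0.29, adjusted p = 0.00011). Ccl2 had 289 and 225 CPM in oQSC against 34 and 26.6 CPM in oFISC, with a log2 difference of -3.09 ± 0.27 (adjusted p = 0.00012). These monocyte attractants were several-fold lower in both oFISC libraries, with no overlap. Birc3 was at 327 and 334 CPM in oQSC and at 71.1 and 60.9 CPM in oFISC (log2 difference -2.32 ± 0.20, adjusted p = 0.00011). Nfkbia, the inhibitor that holds NF-kB in the cytoplasm, had 1998 and 2029 CPM in oQSC against 381 and 497 CPM in oFISC, with a log2 difference of -2.20 ± 0.24 (adjusted p = 0.00026), and with the length correction its difference was -0.41 and not called. Both genes were separated between the groups. Nfkb2, which codes for the p100 subunit, was at 53.2 and 99.6 CPM in oQSC and at 183 and 224 CPM in oFISC (log2 difference 1.41 ± 0.30, adjusted p = 0.0070). Cxcl2 had 73.2 and 78.2 CPM in oQSC against 117 and 153 CPM in oFISC, with a log2 difference of 0.83 ± 0.25 (adjusted p = 0.029). Both were above the oQSC range in both oFISC libraries, although the call of Cxcl2 was lost without oFISC 2 (0.76), oQSC 1 (0.73) or oQSC 2 (0.86). Il6 was at 38.9 and 30.1 CPM in oQSC and 15.2 and 12.7 CPM in oFISC and fell by 1.31 ± 0.25 (adjusted p = 0.0043), but was not called in the other 2 fits. Cxcl1, at 2096 and 1904 and 1764 and 2356 CPM, overlapped between the groups (0.04 ± 0.29, adjusted p = 0.91) and was called higher in the other 2 fits (0.94 and 1.71).

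The Il6 family pathway, in which receptors of the gp130 type activate Stat3 and Stat3 induces its own inhibitors, was lower in freshly isolated cells. Of 16 tested members 12 were lower and 1 higher in the fit of all genes, with a median of -1.41. Of 15 in the well-expressed fit 7 were lower and 2 higher (median -0.54), and with the length correction 7 and 3 (-0.79). In all 3 fits 7 were lower. Bcl6, a transcriptional repressor known as a Stat target, had the largest fall of the list and one of the largest of all. Its 2 RefSeq start sites are printed because both have matches to the STAT site TTCNNNGAA.
Bcl6, upstream start (chr16:23988853-23989102, GRCm38, minus strand): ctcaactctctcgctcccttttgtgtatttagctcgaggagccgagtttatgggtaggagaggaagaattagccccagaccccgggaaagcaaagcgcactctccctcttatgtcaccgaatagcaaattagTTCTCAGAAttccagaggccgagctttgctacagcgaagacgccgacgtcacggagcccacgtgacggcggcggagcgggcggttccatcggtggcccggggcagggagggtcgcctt
Bcl6, downstream start (chr16:23981284-23981533, GRCm38, minus strand): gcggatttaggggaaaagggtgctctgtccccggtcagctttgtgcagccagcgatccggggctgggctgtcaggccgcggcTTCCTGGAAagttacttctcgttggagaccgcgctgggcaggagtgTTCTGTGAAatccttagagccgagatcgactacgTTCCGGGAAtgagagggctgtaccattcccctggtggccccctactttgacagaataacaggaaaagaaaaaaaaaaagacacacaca
Capitals mark 1 match, 109 bases before the upstream start, and 3 matches, 79 to 159 bases before the downstream start. The site was in 2 of 14 promoters of the list (14.3%, Bcl6 and Socs3) and in 8.13% of all.

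Bcl6 read 273 and 232 CPM in the oQSC libraries and 6.41 and 14.3 CPM in the oFISC libraries, a log2 difference of -4.59 ± 0.38 (adjusted p = 0.00011). Socs2, an inhibitor of cytokine and growth hormone signalling, was at 211 and 175 CPM in oQSC and at 24.9 and 15.9 CPM in oFISC (log2 difference -3.25 ± 0.27, adjusted p = 0.00011). Stat3 itself had 2511 and 2588 CPM in oQSC against 565 and 463 CPM in oFISC, with a log2 difference of -2.31 ± 0.23 (adjusted p = 0.00019). Every oFISC value lay far below the oQSC values in these genes. The kinase gene Pim1 was at 461 and 296 CPM in oQSC and at 77.2 and 97 CPM in oFISC (log2 difference -2.12 ± 0.27, adjusted p = 0.00048). Osmr, the receptor of oncostatin M, had 839.7 and 875 CPM in oQSC against 234 and 314 CPM in oFISC, with a log2 difference of -1.65 ± 0.23 (adjusted p = 0.00076). Both were separated and were lower in all 3 fits. Cebpb, a factor of the acute phase response, was the exception and one of the largest rises: it read 3.86 and 6.19 CPM in the oQSC libraries and 31.7 and 41.2 CPM in the oFISC libraries, a log2 difference of 2.86 ± 0.30 (adjusted p = 0.00020), and its groups did not overlap. Socs3, at 75.6 and 139 CPM in oQSC and 85.7 and 68.8 CPM in oFISC, overlapped and was not called (-0.47 ± 0.30, adjusted p = 0.23), with differences of 0.46 and 0.87 in the other 2 fits, the last of them called higher.

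Genes that mark satellite cells and their quiescence were lower in part. Of 22 tested members 11 were lower and 2 higher in the fit of all genes, with a median of -0.77. In the well-expressed fit 7 were lower and 8 higher, against 31.4% and 30% of its genes. With the length correction the counts were 7 and 7, against 28.2% and 26.5%. The median was 0.15 in each of these fits. In all 3 fits 6 were lower and 2 higher, against 23.3% and 7.63% of all well-expressed genes. The lower ones included Pax7, Calcr, Cd34 and Cdkn1b, and the higher ones were Itga7 and Sdc3. Without oQSC 2, 7 were lower. In bulk libraries fewer cells of a type and less RNA per cell cannot be told apart.

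Cd34, a surface marker of quiescent satellite cells, read 356 and 349 CPM in the oQSC libraries and 57.8 and 50.2 CPM in the oFISC libraries, a log2 difference of -2.71 ± 0.20 (adjusted p = 9.9e-05). Calcr, the calcitonin receptor that keeps them quiescent, was at 271 and 269 CPM in oQSC and at 58.2 and 36 CPM in oFISC (log2 difference -2.52 ± 0.27, adjusted p = 0.00023). Cdkn1b, the cell cycle inhibitor p27, had 54.4 and 36.3 CPM in oQSC against 7.84 and 6.94 CPM in oFISC, with a log2 difference of -2.62 ± 0.26 (adjusted p = 0.00017). All 3 were well below the oQSC values in both oFISC libraries. Pax7 was at 73.6 and 61.6 CPM in oQSC and at 24.6 and 21.4 CPM in oFISC (log2 difference -1.56 ± 0.20, adjusted p = 0.00060). Its difference was -0.63 and -0.88 in the other 2 fits, both called. In the well-expressed fit it was -0.43 without oFISC 2 and -0.45 without oQSC 1. There it was -0.83 without oFISC 1 and -0.74 without oQSC 2. The imprinted gene Peg3 had 916 and 838 CPM in oQSC against 218 and 287 CPM in oFISC, with a log2 difference of -1.80 ± 0.23 (adjusted p = 0.00051). Neither overlapped. Sdc4, a proteoglycan used to sort satellite cells, was by far the most abundant at 17731 and 14268 CPM in oQSC and 4175 and 4122 CPM in oFISC (-1.95 ± 0.29, adjusted p = 0.0012), with -0.50 after the length correction, where it was not called. Itga7, the laminin-binding integrin of satellite cells, rose from 67.2 and 88.5 CPM to 163 and 131 CPM (0.92 ± 0.23, adjusted p = 0.014), and without oQSC 1 it was 0.68 and not called. Sdc3, with 0.74 ± 0.26, was called in all 3 fits with all libraries, but in the fit of all genes not with the repeat models removed (0.71, adjusted p = 0.052), nor with the replicate block (0.73, adjusted p = 0.065), nor without any 1 of the 6 libraries, at 0.55 without oQSC 1 to 0.96 without oFISC 2.

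The myogenic regulators Myod1 and Myf5 did not pass the test over all genes. Myod1 overlapped between the groups and was at 931 and 1301 CPM in oQSC and 738 and 1379.5 CPM in oFISC (-0.08 ± 0.34, adjusted p = 0.86). In the other 2 fits it was 0.81 and 1.56 higher and called. Myf5 had 734 and 539 CPM against 465 and 359.5 CPM (-0.63 ± 0.24, adjusted p = 0.065), with 0.30 and 1.00 in the other fits, of which the last was called. Both oFISC values lay below both oQSC values, and without oFISC 1 its difference was -0.85 and was called. Myog, the factor of differentiation, was at 23.5 and 25.8 CPM in oQSC and at 6.7 and 1.49 CPM in oFISC (log2 difference -2.64 ± 0.54, adjusted p = 0.0062). It was lower in both oFISC libraries but was not called with the length correction. The oFISC libraries differed from each other, with -4.07 without oFISC 1 and -1.75 without oFISC 2. Among well-expressed genes alone 4 of 9 myogenic and fusion genes were higher and 1 lower, and with the length correction 4 and 0. Of the 12 tested in the fit of all genes 2 were lower and 1 higher (Mef2a, 0.83 ± 0.23, not called without oQSC 1, at 0.87, or oQSC 2, at 0.71).

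Notch genes did not all move one way. Of 19 tested members 9 were lower and 2 higher (3 and 5 of 14 in the well-expressed fit, 3 and 4 with length correction). The effector genes Hey1 and Heyl and the receptor gene Notch2 were lower in all 3 fits. The receptor gene Notch3 and the ligand gene Jag2 were higher in all 3. Hey1 was at 47.6 and 52 CPM in oQSC and at 12.9 and 7.94 CPM in oFISC (log2 difference -2.27 ± 0.26, adjusted p = 0.00034). Heyl had 191 and 313 CPM in oQSC against 74.7 and 35.8 CPM in oFISC, with a log2 difference of -2.19 ± 0.40 (adjusted p = 0.0035), and -2.84 without oFISC 1. In the well-expressed fit its difference was -1.23. There it was -0.72 without oFISC 2, -1.50 without oQSC 1 and -0.82 without oQSC 2. These transcriptional repressors, induced when Notch is cleaved, were lower in both oFISC libraries than in either oQSC library. Hes1, a further effector, was at 52.5 and 60.9 CPM in oQSC and at 15.5 and 18.5 CPM in oFISC (log2 difference -1.74 ± 0.37, adjusted p = 0.0074), but was not called in the other 2 fits, nor without oFISC 1 (-1.64) or oFISC 2 (-1.74). Notch2 had 183 and 133 CPM in oQSC against 50.5 and 47.9 CPM in oFISC, with a log2 difference of -1.69 ± 0.22 (adjusted p = 0.00054). In the well-expressed fit its difference was -0.77, with -0.47 without oQSC 1 and -0.96 without oQSC 2. Notch3 was at 41.2 and 59.2 CPM in oQSC and at 148 and 107 CPM in oFISC (log2 difference 1.35 ± 0.25, adjusted p = 0.0037). The groups were separate for each receptor, in opposite directions. Jag2, with 1.49 ± 0.37, was not called without oFISC 2 (1.08), oQSC 1 (1.40) or oQSC 2 (1.50). Notch1, at 46.8 and 64.5 CPM in oQSC and 71.2 and 72 CPM in oFISC, was not called (0.36 ± 0.24, adjusted p = 0.24). It was called higher in the well-expressed fit (1.28), with RLE size factors and with DESeq2 (0.66 in both), but not with the length correction (0.58).

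Of 13 BMP and Id genes 5 were lower and 0 higher (3 lower and 5 higher of 11 in the well-expressed fit, 3 and 4 with the length correction), and Bmp4 and Id3 were lower in all 3 fits. Bmp4, a ligand, was at 527 and 489 CPM in oQSC and at 49.6 and 57.9 CPM in oFISC (log2 difference -3.24 ± 0.21, adjusted p = 9.9e-05). Id3, a target that blocks myogenic factors, had 2697 and 2715 CPM in oQSC against 399 and 646 CPM in oFISC, with a log2 difference of -2.37 ± 0.31 (adjusted p = 0.00059). Both were lower in each oFISC library than in either oQSC library.

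Some inhibitors of the cell cycle and some replication genes were lower in freshly isolated cells. The G1 genes lower in all 3 fits, 3 of 13, are a share near that of all well-expressed genes (23.3%). Of 15 tested G1 genes 8 were lower and 0 higher (5 lower without oFISC 2 or without oQSC 2), 4 lower and 3 higher of 13 in the well-expressed fit and 3 of each with the length correction, and the cyclin kinase inhibitors Cdkn1a, Cdkn1b and Cdkn2c were lower in all 3 fits. Cdkn1a, the p53 target p21, was at 1305 and 1118 CPM in oQSC and at 165 and 176 CPM in oFISC (log2 difference -2.83 ± 0.22, adjusted p = 9.9e-05). Cdkn2c, the inhibitor p18, had 25.8 and 23.6 CPM in oQSC against 3.3 and 3.22 CPM in oFISC, with a log2 difference of -2.92 ± 0.25 (adjusted p = 0.00011). Neither gene overlapped. Ccnd1, cyclin D1, was at 14.4 and 15.7 CPM in oQSC and 15 and 5.89 CPM in oFISC and was not called (-0.54 ± 0.37, adjusted p = 0.25). Its difference was -1.38 and called without oFISC 1, and 0.12 without oFISC 2.

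Of 22 tested replication and mitosis genes 9 were lower and 0 higher, but 5 lower and 5 higher in the well-expressed fit and 6 and 4 with the length correction. In all 3 fits 5 of the 22 were lower (Rrm1, Rrm2, Mcm4, Mcm6 and Ccne1), a share near that of all well-expressed genes (23.3%). These 5 are genes of nucleotide supply, replication or entry into S phase. Rrm2, the regulated subunit of ribonucleotide reductase, read 340.2 and 327 CPM in the oQSC libraries and 16.3 and 13.7 CPM in the oFISC libraries, a log2 difference of -4.48 ± 0.23 (adjusted p = 9.9e-05). Rrm1, the other subunit, was at 119.7 and 104 CPM in oQSC and at 21.6 and 15.1 CPM in oFISC (log2 difference -2.61 ± 0.24, adjusted p = 0.00013). Mcm4, part of the replicative helicase, had 135 and 126 CPM in oQSC against 18.5 and 12.5 CPM in oFISC, with a log2 difference of -3.08 ± 0.25 (adjusted p = 9.9e-05). Each was several-fold higher in the oQSC libraries, without overlap. The proliferation marker Mki67 was low in both groups, at 1.29 and 2.7 CPM and 4.09 and 2.14 CPM (0.60 ± 0.40, adjusted p = 0.24), and the groups overlapped. It was called higher in the well-expressed fit (1.54, adjusted p = 0.013) and not with the length correction (1.03).

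Of 15 p53 pathway genes 10 were lower, against 22.6% of all genes, but 4 lower and 3 higher in the well-expressed fit and 3 and 4 with the length correction (medians of -1.09, -0.19 and 0.24). In the first fit 1 was higher (Bbc3, 1.11 ± 0.28, not called without oQSC 1, at 0.96). Gadd45g was at 243 and 222 CPM in oQSC and at 32.1 and 40.5 CPM in oFISC (log2 difference -2.68 ± 0.22, adjusted p = 0.00010). It was lower in all 3 fits and did not overlap. Of 11 genes of the Myc network 4 were lower and 1 higher (3 and 4 of 9 in the well-expressed fit, 2 and 3 with the length correction). Myc, at 2391 and 2486 CPM in oQSC, had 649.8 and 919 CPM in oFISC (-1.64 ± 0.26, adjusted p = 0.0015) and, after the length correction, a difference of -0.27 that was not called.

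Genes of the integrated stress response and of the unfolded protein response were more often lower than higher in the fit of all genes. The margin was smaller in the well-expressed fit, and the calls were even with the length correction. Of 17 genes of the list 10 were lower and 1 higher, against 22.6% and 19.3% of all genes, with a median of -0.79. The well-expressed fit had 7 lower and 5 higher (median 0.10), the length correction gave 7 and 7 (0.18), and 7 were lower in all 3 fits. Hspa5, the endoplasmic reticulum chaperone BiP, read 12171 and 11348 CPM in the oQSC libraries and 2250.4 and 2426 CPM in the oFISC libraries, a log2 difference of -2.33 ± 0.28 (adjusted p = 0.00039). Xbp1, a factor of the unfolded protein response, was at 2141 and 2009 CPM in oQSC and at 357 and 439 CPM in oFISC (log2 difference -2.38 ± 0.24, adjusted p = 0.00017). Ddit3, the factor CHOP, had 83.8 and 66.2 CPM in oQSC against 9.61 and 10.1 CPM in oFISC, with a log2 difference of -2.93 ± 0.22 (adjusted p = 9.9e-05). In each of them the oFISC values were a fraction of the oQSC values. Nupr1, a stress-induced nuclear protein, was at 187 and 143 CPM in oQSC and at 22.7 and 28.9 CPM in oFISC (log2 difference -2.67 ± 0.23, adjusted p = 0.00011). The member that rose was Slc7a11, the cystine transporter that supplies glutathione synthesis, which read 0.802 and 1.54 CPM in the oQSC libraries and 9.12 and 9.23 CPM in the oFISC libraries, a log2 difference of 2.96 ± 0.38 (adjusted p = 0.00052). Its values were low in all 4 libraries but did not overlap.

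Targets of Nrf2, the factor that answers oxidative stress, rose in part. Of 13 tested genes of the list, which also holds the metallothioneins, 4 were higher and 4 lower (6 and 2 in the well-expressed fit, 8 and 1 with the length correction), and Hmox1, Gclm, Gclc and Txnrd1 were higher in all 3 fits. Hmox1, heme oxygenase, read 129 and 132 CPM in the oQSC libraries and 823 and 1292 CPM in the oFISC libraries, a log2 difference of 3.02 ± 0.46 (adjusted p = 0.0013). Gclm, a subunit of the enzyme that makes glutathione's precursor, was at 40.2 and 41.5 CPM in oQSC and at 133 and 182 CPM in oFISC (log2 difference 1.95 ± 0.22, adjusted p = 0.00028). Both oFISC libraries were several-fold above both oQSC libraries. The metallothionein gene Mt1, which binds zinc and answers metals and glucocorticoids, went the other way and read 5217 and 4894 CPM in the oQSC libraries and 713 and 781 CPM in the oFISC libraries, a log2 difference of -2.76 ± 0.25 (adjusted p = 0.00013), lower in all 3 fits. Without oQSC 1, 2 members of the list were called higher, Gclc (1.03) and Txnrd1 (0.56) no longer passing. Neither passed without oQSC 2 (0.94 and 0.97), and Txnrd1 also not without oFISC 2 (0.59), oASC 1 or oASC 2 (0.75 in each).

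Calls among ribosome biogenesis factors depended on the fit and on single libraries. Of 24 tested members 3 were higher (Rrp12, Bop1 and Utp20, in all 3 fits) and 5 lower (0 in all 3 fits), and the median was 0.15. The count was 15 higher and 1 lower in the well-expressed fit, against 30% and 31.4% of its genes, and with the length correction 16 and 2, against 26.5% and 28.2%, with medians of 1.04 and 0.99. Without oFISC 1, 10 were higher, without oQSC 1, 1 was higher and 3 lower, and without oFISC 2, 9 were lower. Rrp12 was at 7.84 and 13 CPM in oQSC and at 49.6 and 74.2 CPM in oFISC (log2 difference 2.57 ± 0.31, adjusted p = 0.00039). Bop1 had 17.8 and 29.1 CPM in oQSC against 47.1 and 73.4 CPM in oFISC, with a log2 difference of 1.36 ± 0.30 (adjusted p = 0.0081), and 1.00 without oQSC 1, where it was not called. Utp20, with 1.12 ± 0.33, was not called without oFISC 2 (0.59), oQSC 1 (0.95) or oQSC 2 (1.22). Nop16 had 311 and 247 CPM in oQSC and 57.7 and 109 CPM in oFISC (-1.74 ± 0.31, adjusted p = 0.0027), and -0.09 with the length correction. None of these genes overlapped between the groups.

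Nuclear genes of the respiratory chain were lower without exception in the fit of all genes, 27 of 27, with a median of -1.99. The well-expressed fit called 24 lower and 0 higher (median -1.08), and the length correction 13 and 1 (-0.41). In all 3 fits 12 were lower. Exon length moved with the difference over all well-expressed genes, as given above, and its part here was not tested. Ndufb8, a subunit of complex I, was at 248 and 175 CPM in oQSC and at 18.3 and 23.3 CPM in oFISC (log2 difference -3.34 ± 0.26, adjusted p = 9.9e-05). Sdhb, of complex II, had 256 and 187 CPM in oQSC against 27.5 and 30.7 CPM in oFISC, with a log2 difference of -2.93 ± 0.23 (adjusted p = 9.9e-05). Both were lower in all 3 fits with no overlap. The 13 protein genes of the mitochondrial genome itself did not follow: 5 were higher and 1 lower, with a median of 0.34. Of the same genes 11 were higher and 1 lower in the well-expressed fit (median 1.23), and with the length correction 12 and 0 (2.37). The mitochondrial genome took 1.36% and 1.19% of the counts in oQSC and 1.43% and 3.12% in oFISC. All 5 genes that rose in the first fit code for complex I subunits (mt-Nd3, mt-Nd4, mt-Nd4l, mt-Nd5 and mt-Nd6). The count in that fit was 3 without oQSC 1 or without oQSC 2, where mt-Nd4 (0.82 and 0.63) and mt-Nd5 (1.07 and 0.87) did not pass, and mt-Nd4 did not pass without oASC 1 or oASC 2 either (0.72 in each). mt-Nd3 was at 8.36 and 8.89 CPM in oQSC and at 53.3 and 66.1 CPM in oFISC (log2 difference 2.79 ± 0.22, adjusted p = 9.9e-05). mt-Nd4l had 23.5 and 25.8 CPM in oQSC against 92.3 and 139 CPM in oFISC, with a log2 difference of 2.23 ± 0.25 (adjusted p = 0.00028). Each oFISC value was several times each oQSC value. mt-Cytb, of complex III and the member that was lower, was far more abundant at 6117 and 4488 CPM in oQSC and 1506 and 2202 CPM in oFISC (-1.52 ± 0.31, adjusted p = 0.0059), and had a difference of 0.46 with the length correction, which was not called. Neighbouring mitochondrial genes are cut from shared transcripts and have nuclear copies, so their counts may be mixed.

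Proteasome, lysosome and glycolysis genes were also mostly lower in the fit of all genes. Of 25 proteasome subunit genes 24 were lower and 0 higher (10 in all 3 fits). Psmb6, a catalytic subunit of the core, was at 789.7 and 591 CPM in oQSC and at 62.8 and 89.5 CPM in oFISC (log2 difference -3.18 ± 0.27, adjusted p = 0.00011). Psmc3, an ATPase of the regulatory particle, had 352 and 289 CPM in oQSC against 40.5 and 53.1 CPM in oFISC, with a log2 difference of -2.77 ± 0.23 (adjusted p = 0.00011). Neither overlapped between the groups. Of the subunit genes 20 were lower in the well-expressed fit, and 12 without oQSC 1. With the length correction 11 were lower and 1 higher. Of 18 genes of lysosomes and autophagy 16 were lower and 0 higher, with medians of -1.66, -0.77 and -0.78, and 10 were lower in all 3 fits. Of 17 in the well-expressed fit 13 were lower and 0 higher, and with the length correction 10 and 1. Map1lc3b, which codes for the autophagosome protein LC3B, was at 1682 and 1323 CPM in oQSC and at 119.5 and 170.2 CPM in oFISC (log2 difference -3.37 ± 0.27, adjusted p = 0.00010). Becn1, of the complex that starts autophagosomes, had 309.8 and 269 CPM in oQSC against 47.6 and 53.2 CPM in oFISC, with a log2 difference of -2.52 ± 0.21 (adjusted p = 0.00011). The lysosomal protease gene Ctsb was at 974 and 1008 CPM in oQSC and at 162 and 184 CPM in oFISC (log2 difference -2.52 ± 0.22, adjusted p = 0.00011). All 3 were lower in every fit and in both oFISC libraries. Of 18 glycolysis genes 12 were lower and 1 higher (7 and 2 of 17 in the well-expressed fit, 5 and 2 with the length correction), with 5 lower in all 3 fits. Eno1 had 526 and 502 CPM in oQSC against 70.2 and 78.1 CPM in oFISC, with a log2 difference of -2.79 ± 0.23 (adjusted p = 0.00011). It has processed copies elsewhere in the genome, among which reads may be shared.

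Basement membrane and collagen genes were more often higher than lower. Of 21 tested members 8 were higher, all of them in all 3 fits, against 19.3% of all genes and 7.63% of the well-expressed ones, and 2 were lower. Of 19 members in the well-expressed fit 16 were higher and 1 lower, and with the length correction 13 and 1. The medians were 0.42, 1.35 and 0.95. Hspg2, the heparan sulfate proteoglycan perlecan, was at 13.1 and 21.8 CPM in oQSC and at 55.1 and 79.1 CPM in oFISC (log2 difference 1.94 ± 0.29, adjusted p = 0.0012). Col5a3, a collagen V chain that is a Notch target in satellite cells, had 9.68 and 14.8 CPM in oQSC against 43.7 and 42.9 CPM in oFISC, with a log2 difference of 1.82 ± 0.26 (adjusted p = 0.0010). Lama5, a laminin chain of the satellite cell niche, was at 8.59 and 11 CPM in oQSC and at 27.9 and 23 CPM in oFISC (log2 difference 1.37 ± 0.22, adjusted p = 0.0019). Each was higher in both oFISC libraries than in either oQSC library. Sparc, a matricellular protein, was lower in all 3 fits: it read 497 and 506 CPM in the oQSC libraries and 151 and 73 CPM in the oFISC libraries, a log2 difference of -2.17 ± 0.33 (adjusted p = 0.0013), with -2.80 without oFISC 1. The count of higher members was 5 without oFISC 1, without oQSC 1, without oASC 1 or without oASC 2.

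Among chromatin modifiers the balance depended on the fit. Over all genes 5 of 26 were higher and 5 lower, shares near the 19.3% and 22.6% of all genes, with a median of 0.22. Of 25 in the well-expressed fit 19 were higher and 1 lower (median 1.06), and with the length correction 11 and 2 (0.47). All 5 higher ones of the first fit held in all 3 (Tet3, Srcap, Hdac5, Chd3 and Setd1a). Tet3, which oxidises methylated cytosine, was at 8.5 and 7.73 CPM in oQSC and at 20.3 and 23.2 CPM in oFISC (log2 difference 1.42 ± 0.20, adjusted p = 0.00097). Srcap, a remodeller that places H2A.Z, had 11.3 and 10.6 CPM in oQSC against 24.8 and 47 CPM in oFISC, with a log2 difference of 1.72 ± 0.31 (adjusted p = 0.0032). The groups were separate in both. Hdac5, a histone deacetylase, had 16.5 and 19.4 CPM in oQSC and 33.5 and 34.5 CPM in oFISC (0.92 ± 0.19, adjusted p = 0.0067) and was 0.76 without oQSC 1, where it was not called. Without oQSC 1 the list had 3 higher and 3 lower members, with Setd1a at 1.27 and not called, without oFISC 2 it had 3 lower ones, and with RLE size factors 9 were higher and 3 lower.

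Of 23 splicing genes 14 were lower and 1 higher (8 lower without oQSC 1), against 22.6% and 19.3% of all genes. The well-expressed fit called 7 lower and 6 higher (median 0.13), and with the length correction 7 and 5 (-0.10). The 6 lower in all 3 fits are a share near that of all well-expressed genes (23.3%). The Clk kinases phosphorylate splicing factors and keep many of their own transcripts in the nucleus with introns retained. Clk1 was at 917 and 748 CPM in oQSC and at 207 and 242 CPM in oFISC (log2 difference -1.89 ± 0.22, adjusted p = 0.00035). Clk4 had 221 and 183 CPM in oQSC against 47.6 and 47.3 CPM in oFISC, with a log2 difference of -2.09 ± 0.20 (adjusted p = 0.00016). Luc7l2, a factor of the U1 particle, rose and read 35.4 and 33.1 CPM in the oQSC libraries and 62.3 and 71.3 CPM in the oFISC libraries, a log2 difference of 0.96 ± 0.19 (adjusted p = 0.0048). All were separated between groups.

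In the well-expressed fit and with the length correction 4 of 17 clock genes were lower and 5 higher. Of 18 tested over all genes 8 were lower (5 without oQSC 2 and 5 with RLE size factors) and 1 higher (Npas2, 1.31 ± 0.41, not called without oFISC 2, at 1.03, oQSC 1, at 1.34, or oQSC 2, at 1.20). Bhlhe40, a repressor of the clock that is also induced by stress, was at 405 and 411 CPM in oQSC and at 41 and 32.2 CPM in oFISC (log2 difference -3.48 ± 0.22, adjusted p = 9.9e-05). Per3 had 116 and 81.5 CPM in oQSC against 9.71 and 4.72 CPM in oFISC, with a log2 difference of -3.79 ± 0.37 (adjusted p = 0.00016), and -4.41 without oFISC 1. Both fell in all 3 fits without overlap. Per1 was at 79.2 and 142 CPM in oQSC and at 31.1 and 47.5 CPM in oFISC (log2 difference -1.49 ± 0.32, adjusted p = 0.0071), was not called in the well-expressed fit (-0.59) and was -1.25 without oFISC 1, where it was not called. The E-box CACGTG was in 5 of 16 clock promoters (31.2%) and in 6.86% of all. The labels give no time of day.

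Of 21 genes of the interferon response and antigen presentation 15 were lower and 0 higher, 6 of them in all 3 fits, with medians of -1.45, -0.55 and -0.10. Ifit1 was at 26.5 and 21.8 CPM in oQSC and at 3.45 and 1.85 CPM in oFISC (log2 difference -3.21 ± 0.34, adjusted p = 0.00023). It did not overlap between groups. In the well-expressed fit 8 were lower, and 5 without oQSC 1. With the length correction 6 of 17 were lower and 3 higher.

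In 3 further lists fewer members passed, and counts in parentheses are those of the well-expressed fit and with the length correction. Of 14 growth factors and receptors of activation 4 were lower (2 and 2 of 10) and 1 higher (6 and 5 of 10), and with RLE size factors 4 and with DESeq2 5 were higher. Of 16 genes of the primary cilium and Hedgehog signalling 7 were lower (4 and 4 of 13) and 2 higher (4 and 3 of 13), with 4 lower in all 3 fits. Of 8 FoxO factors and atrophy ligases 3 were lower (2 and 3 of 4) and 1 higher (1 and 1 of 4), and the last call was lost without oFISC 1.

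The largest falls were taken from genes that passed the test, reached 20 CPM in 1 of the groups and did not overlap between the groups, so the lack of overlap is part of the choice here and below. They included genes outside these lists. Adh1, an alcohol and retinol dehydrogenase, read 281 and 226 CPM in the oQSC libraries and 8.08 and 6.56 CPM in the oFISC libraries, a log2 difference of -5.12 ± 0.25 (adjusted p = 9.9e-05). Rhoh, a small GTPase known from blood cells, was at 1139 and 1003 CPM in oQSC and at 56.5 and 34 CPM in oFISC (log2 difference -4.57 ± 0.37, adjusted p = 9.9e-05). Nnmt, which methylates nicotinamide, had 199 and 161 CPM in oQSC against 7.84 and 8.14 CPM in oFISC, with a log2 difference of -4.49 ± 0.22 (adjusted p = 9.9e-05). All 3 were many times lower in both oFISC libraries. Thrsp, a regulator of lipid synthesis, fell by 4.76 ± 0.34, the mitochondrial sulfur dioxygenase gene Ethe1 by 4.39 ± 0.26 and the tubulin gene Tubg1 by 4.26 ± 0.24 (adjusted p = 9.9e-05, 9.9e-05 and 9.9e-05). Angptl7, a secreted protein, was at 56.1 and 32.8 and 2.91 and 1.14 CPM (-4.50 ± 0.47, adjusted p = 0.00020), and -5.30 and -3.80 without either oFISC library. Tnfsf9, the ligand of 4-1BB, was at 63.8 and 51.6 and 4.73 and 1.9 CPM (-4.15 ± 0.42, adjusted p = 0.00019), and -4.94 and -3.47. All 8 genes were lower in all 3 fits.

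A pair of immunoglobulin genes, which B cells express, was also among the largest falls. Igkv4-57 was at 24.4 and 19.5 CPM in oQSC and at 0.246 and 0.0586 CPM in oFISC (log2 difference -7.34 ± 0.53, adjusted p = 0.00011), and -8.51 and -6.33 without either oFISC library. Ighm had 22.6 and 24.1 CPM in oQSC against 1.63 and 0.322 CPM in oFISC, with a log2 difference of -4.69 ± 1.57 (adjusted p = 0.041), and its call was lost without any 1 of the 4 libraries (differences of -6.19 to -3.71). With DESeq2 the difference of Ighm was -4.25 and not called. The list of lymphocyte markers did not share this fall, as 2 of 8 tested members were higher and 1 lower. Reads of immunoglobulin gene segments can be shared among near-identical members of the family.

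Among the largest rises, Capn15, a calpain family protease, read 4.98 and 7.73 CPM in the oQSC libraries and 43.1 and 79.2 CPM in the oFISC libraries, a log2 difference of 3.27 ± 0.35 (adjusted p = 0.00023). Lats1, the kinase of the Hippo pathway that restrains Yap, was at 3.09 and 4.62 CPM in oQSC and at 26.4 and 38.5 CPM in oFISC (log2 difference 3.07 ± 0.29, adjusted p = 0.00015). Nol6, a nucleolar factor of the small ribosomal subunit, had 4.04 and 7.35 CPM in oQSC against 31.8 and 56 CPM in oFISC, with a log2 difference of 2.95 ± 0.36 (adjusted p = 0.00043). All were higher in all 3 fits. Impdh1, of guanine nucleotide synthesis, was at 3.29 and 12.7 and 39.9 and 64.9 CPM (2.71 ± 0.54, adjusted p = 0.0052), with 1.99 without oQSC 1 and 3.97 without oQSC 2. Vasn, a membrane protein that binds TGF-beta, was at 4.24 and 10.2 and 30.7 and 58.5 CPM (2.63 ± 0.45, adjusted p = 0.0024), with 3.37 without oQSC 2. Both depended in size on the oQSC libraries, which differed from each other. The nuclear envelope gene Sun2 rose by 2.61 ± 0.38, Cluh, which binds mRNAs of mitochondrial proteins, by 2.59 ± 0.35, and Pgd, of the pentose phosphate pathway, by 2.50 ± 0.32 (adjusted p = 0.0010, 0.00076 and 0.00056). The fibre myosin gene Myh4 was at 1.23 and 1.24 CPM in oQSC and at 37.4 and 3.34 CPM in oFISC (log2 difference 4.03 ± 0.94, adjusted p = 0.011), but 1.41 without oFISC 1 and 5.05 without oFISC 2, and in the fit of all genes its call was lost without oFISC 1, oQSC 1 or oQSC 2. In the well-expressed fit it was 2.27 without oFISC 1 (adjusted p = 0.0053), which was called.

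**Figure D4:**
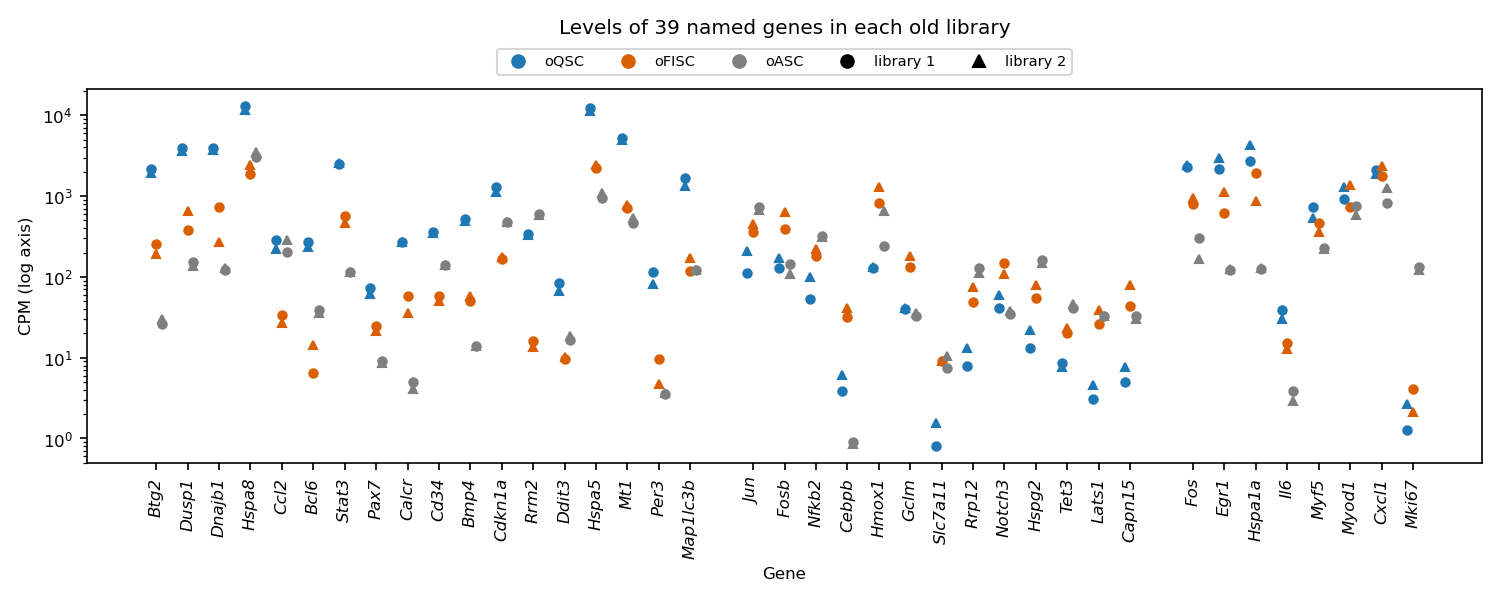
CPM on a log axis (vertical) of 39 named genes in each of the 6 libraries of old cells, 1 point per library, with colours for the groups and shapes for the libraries. From the left, genes lower in oFISC than in oQSC in all 3 fits come first, then genes higher in all 3 fits, such as Capn15, Lats1, Hmox1 and Cebpb, and at the right genes whose call depends on the fit, such as Fos and Myod1.

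Markers of other cells were checked in every list. Muscle fibre markers summed to 186 and 182 CPM in oQSC and 622 and 90.9 CPM in oFISC, and 5 of 16 were called higher and 1 lower. Without oFISC 1, 1 was higher and 7 lower, and without oFISC 2, 14 were higher. The creatine kinase gene Ckm was at 6.27 and 7.95 CPM in oQSC and at 83.8 and 6.71 CPM in oFISC (log2 difference 2.66 ± 0.88, adjusted p = 0.040), and -0.11 without oFISC 1 and 3.69 without oFISC 2, so its rise was that of 1 library.

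Most other marker lists summed to less in oFISC. Fibro-adipogenic and fibroblast markers went from 1395 and 2118 CPM to 987 and 656 CPM (6 of 12 lower, 0 higher), and macrophage markers from 142 and 112 CPM to 28.7 and 21.4 CPM (6 of 13 lower, 2 higher). Schwann cell markers went from 502 and 481 CPM to 81.3 and 51.2 CPM (2 of 8 lower, 0 higher, with a median of 0.06), nearly all of it the myelin gene Pmp22, and erythroid markers from 210 and 191 CPM to 34.5 and 22.8 CPM (4 of 6 lower, 1 higher). Pericyte markers summed to 293 and 297 CPM in oQSC and 126 and 77.5 CPM in oFISC (6 of 12 lower, 2 higher), tenocyte markers to 111 and 125 CPM and 34.5 and 16.2 CPM (5 of 7 lower, 0 higher), and endothelial markers to 142 and 177 CPM and 113 and 91.0 CPM (2 of 14 lower, 0 higher). Neutrophil markers summed to 17.6 and 15.6 CPM in oQSC and 8.18 and 3.25 CPM in oFISC, lymphocyte markers to 5.87 and 6.82 CPM and 8.43 and 6.47 CPM, and adipocyte markers to 16.3 and 15.4 CPM and 8.33 and 3.90 CPM. Of 8 tested lymphocyte markers 2 were higher and 1 lower, with a median of 2.19. The sums of all these lists except those of fibres and lymphocytes were lower in both oFISC libraries than in either oQSC library. These calls are from the fit of all genes. In each of the other 2 fits 2 of 6 endothelial markers were higher and 0 lower. Of 8 fibroblast markers 3 were lower in each, with 2 higher in the well-expressed fit and 1 with the length correction. These fits hold only 3 macrophage, 4 erythroid, 3 tenocyte, 5 pericyte and 2 Schwann cell markers, of which 0 were higher in either fit. In the same order 3, 4, 2, 1 and 1 were lower in the well-expressed fit. With the length correction 2, 1, 2, 1 and 1 were lower. The mean CPM that chose these markers includes the oQSC libraries. Among the markers tested, those at 0 included Itgam and Plin1 in both oQSC libraries and Camp in both oFISC libraries. Dcn, a fibroblast gene, was at 477 and 390.4 CPM in oQSC and at 47.4 and 40.6 CPM in oFISC (log2 difference -3.30 ± 0.25, adjusted p = 9.9e-05). Pmp22 had 484 and 458 CPM in oQSC against 64 and 35.8 CPM in oFISC, with a log2 difference of -3.24 ± 0.32 (adjusted p = 0.00016). Cd14, of monocytes, was at 70.2 and 53.4 CPM in oQSC and at 4.24 and 5.42 CPM in oFISC (log2 difference -3.67 ± 0.26, adjusted p = 9.9e-05). Each was lower in both oFISC libraries, and the haemoglobin gene Hba-a1 fell by 3.20 ± 0.27 (adjusted p = 0.00011), with counts that may be shared with its near-identical copy. The 8 defining markers of satellite cells were all detected in both groups (sums of 21292 and 18039 CPM in oQSC and 6103 and 6198 CPM in oFISC, mostly Sdc4), 4 of them lower and 1 higher. In the well-expressed fit 3 were lower and 2 higher, and with the length correction 3 and 3. The part of other cells in the differences above was not tested.

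Compared with activated old cells, 67% of 30099 genes were called in oFISC, 39.7% higher and 27.3% lower, with a median of 1.05 over all genes. This comparison shares its oFISC libraries with the first. Early genes were higher than in oASC: 17 of 24 were higher and 4 lower. Egr1 was at 123 and 125 CPM in oASC and higher in oFISC (log2 difference 2.82 ± 0.34, adjusted p = 0.00023), and Fos at 301 and 168 CPM (1.91 ± 0.31, adjusted p = 0.0011). By CPM both thus stood between the fixed and the activated cells in the oFISC libraries. Against oQSC, Fos was not called in the other 2 fits (-0.50 and 0.10), nor Egr1 with the length correction (-0.66). Pax7, at 9.03 and 8.68 CPM in oASC, and Calcr, at 4.97 and 4.07 CPM, were 1.38 ± 0.20 and 3.38 ± 0.28 higher in oFISC (adjusted p = 0.00070 and 3.8e-05). All 22 replication genes were lower in oFISC than in oASC, among them Rrm2 (598 and 589 CPM in oASC, -5.31 ± 0.24, adjusted p = 8.2e-06) and Mki67 (133 and 122 CPM, -5.38 ± 0.43, adjusted p = 3.2e-05). Bcl6 was lower in oFISC than in either other group, with 39.2 and 35.9 CPM in oASC (-1.85 ± 0.34, adjusted p = 0.0021). Cebpb, at 0.903 and 0.861 CPM in oASC, was higher in oFISC than in either (5.37 ± 0.34, adjusted p = 1.4e-05). Of the nuclear respiratory chain genes 27 of 27, and of the proteasome genes 24 of 25, were lower than in oASC too.

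Beside the younger cells of the series, which come from another table and were not tested against these, the fixed old cells did not read like uninjured cells. Fos was at 91.5 and 54.6 CPM in uninjured cells, 2207 and 2644 CPM at 0.5 h after injury and 2264 and 2408 CPM in oQSC. Pax7 was at 1781 and 1569.7 CPM in uninjured cells against 73.6 and 61.6 CPM in oQSC and 24.6 and 21.4 CPM in oFISC. Myod1, at 42.3 and 51.3 CPM in uninjured cells, was lower there than in each of the 4 libraries of old cells given above. The fixed old cells thus had Fos like the younger cells shortly after injury, and less Pax7 and more Myod1 than the uninjured ones. Hspa8 was at 331 and 299 CPM, Cdkn1a at 11.9 and 6.71 CPM and Mt1 at 26.2 and 19.5 CPM in uninjured cells, and all of these levels lie below those of both oFISC libraries as well as of oQSC. For these genes freshly isolated old cells lay between the uninjured younger cells and the fixed old cells. Age, table and annotation release cannot be told apart in this reading.

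**Figure D5:**
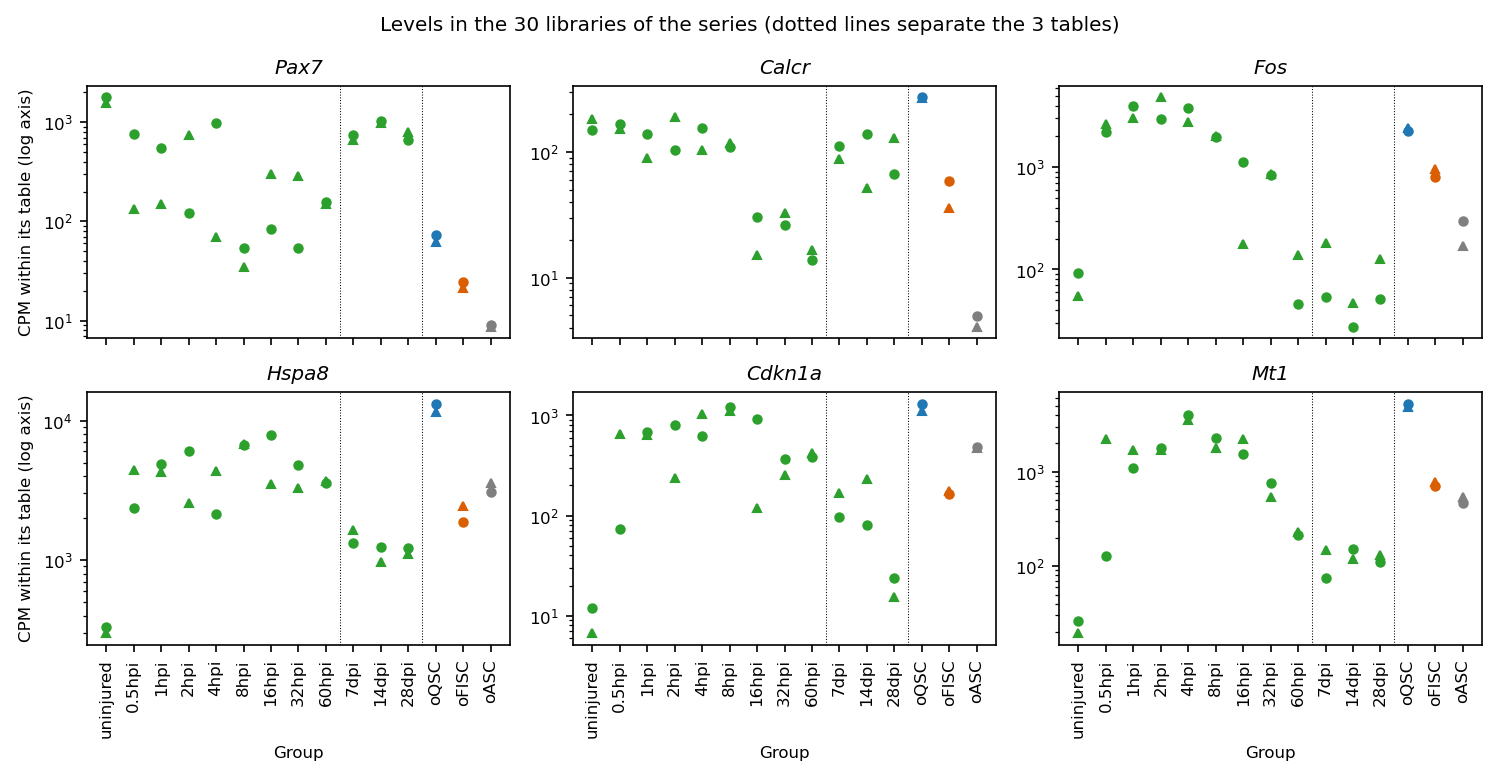
CPM within each table on a log axis (vertical) of 6 genes in all 30 libraries, 1 point per library, with groups along the horizontal axis in order of time after injury and the old cells at the right, past the second dotted line. Fos in oQSC (2264 and 2408 CPM) is at the level of 0.5 h after injury, and Fos in oFISC (805 and 958 CPM) lies between that and uninjured cells.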

How the data were processed

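Counts per gene of 6 libraries of old cells (2 each of oFISC, oQSC and oASC) were used as the authors deposited them, whole numbers in 1 table. The submitters' processing notes name Trimmomatic 0.36, HISAT2 2.1.0, SAMtools 1.3, StringTie 1.3.3 and mm10. Which program counted the reads, on which strand and with which annotation is not given in the sources used here, so reads of overlapping, antisense or near-identical genes can be assigned to either. Of 55335 identifiers 55154 matched GENCODE M21. The protocols mention no molecular identifiers, and amplified copies are therefore included.

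edgeR 4.0.16 (limma 3.58.1, R 4.3.3) was run over all 6 libraries, which share 1 estimate of the spread: filterByExpr (minimum count 10, minimum total 15), TMM scaling, quasi-likelihood F test, and a call at p under 0.05 after Benjamini-Hochberg adjustment across the tested genes. Standard errors are the absolute log2 difference over the square root of F. CPM are counts scaled to 1 M of the library's counts in tested genes times its TMM factor, repeat models included. The factors were 0.780 and 0.839 for the oQSC libraries and 0.964 and 1.47 for the oFISC libraries. The further fits used protein-coding genes with a mean of at least 5 CPM, without and with offsets for exon length (lowess, span 0.3). They and the fits that leave out a library from them were chosen after seeing the data. DESeq2 1.42.0, RLE factors, no filter, a replicate block, the removal of repeat models, the fit of 4 libraries and leaving out each library were the other alternatives, listed with earlier results of these data known. The numbers of the replicates were not used to pair the libraries. Deviations from the group means correlated at 0.041 between oQSC and oFISC and at -0.029 and 0.102 with oASC. With 2 libraries a group this cannot exclude a pairing.

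On data simulated for oFISC against oQSC (21322 genes), 26% of 2-fold, 84% of 4-fold, 94% of 8-fold and 96% of 16-fold changes were called, with 4 false of 154 calls. The simulation changed 50 genes at each fold, while 41.9% of genes were called in the data. It therefore cannot show how many calls are false under so wide a shift.

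The members and gene lists were chosen with earlier results of these data known. Named genes were the 12 that rose most and the 12 that fell most, if called, with separate libraries and at least 20 CPM in a group, and up to 6 of each list. Genes that went against their list, that were not called, that are named with a list's count, or that are named as markers were chosen after their values were seen. Promoters are RefSeq sequences of GRCm38.p6, searched on both strands over the 250 bases before the start. Counts of other libraries were used only as CPM within their own tables. Results for a few genes are not reported here.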

Additional observations from a re-analysis of the deposited data

How the results depend on the processing

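Depth limited the oFISC libraries (8.73 and 17.3 M counts outside repeat models), and with 2 libraries a group each value left alone is assumed to vary like the others. With oFISC and oQSC, leaving out 1 library gave 8000 to 12606 called genes (1886 to 6144 higher, 5716 to 6462 lower), and with oFISC and oASC 12602 to 21250 (5107 to 12816 higher, 7190 to 8434 lower). Without repeat models and without oFISC 1, 8003 genes were called (1885 higher, 6118 lower) against oQSC and 12593 (5091 higher) against oASC. The replicate block gave 10373 calls, 3813 higher and 6560 lower. Repeat models removed, both with and without ribosomal RNA models, RLE, DESeq2 (11530 calls), no filter on low counts (13117 of 50724) and the fit of 4 libraries (13419) kept the number of calls within 1.5 times. The well-expressed fit tests fewer genes: 5870 called against oQSC (2867 higher, 3003 lower) and 6632 against oASC (3248, 3384), and 5231 (2533, 2698) and 6191 (3160, 3031) with length correction. Leaving out oFISC 1, oFISC 2, oQSC 1 or oQSC 2 there gave 5854, 5602, 4682 and 5289 calls against oQSC (2848, 2711, 2365 and 2657 higher, and 3006, 2891, 2317 and 2632 lower). Against oASC it gave 6485 and 6421 without oFISC 1 and 2 and 6648 without either oQSC library (3155, 3135 and 3228 higher, and 3330, 3286 and 3420 lower).

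Of 144 genes read one by one under the 14 alternatives other than the well-expressed fits, 1924 of 2016 values kept direction and call. Of the other values 73 lost the call, 7 gained it and 12 changed sign, and 111 genes kept both throughout. With the well-expressed fits counted too, 90 genes did. In the well-expressed fit 8 genes kept their sign but lost the call, and with length correction 11. Sign changes were Myod1 with RLE and with DESeq2 (0.21 in both), Myod1 (0.28) and Ckm (-0.11) without oFISC 1, also with repeat models removed, Cxcl1 (-0.05) and Ccnd1 (0.12) without oFISC 2, Junb (-0.14) without oQSC 1, and Cxcl1 (-0.049), Socs3 (0.0079) and Myod1 (0.16) without oQSC 2. Over the libraries left out, the range was -0.14 to 2.38 for Junb, -0.90 to 0.0079 for Socs3, -0.47 to 0.28 for Myod1, -1.38 to 0.12 for Ccnd1 and -0.11 to 3.69 for Ckm. In the well-expressed fit the sign changes were Socs3 0.46, Myf5 0.30, Myod1 0.81 and Ccnd1 0.41, and with length correction Fos 0.10, Atf3 0.33, Spry1 0.19, Hspa1a 0.027, Il6 0.19, Socs3 0.87, Myf5 1.00, Myod1 1.56, Ccnd1 0.36 and mt-Cytb 0.46. With 1 library left out of the well-expressed fit they were Socs3 (0.20, 0.71, 0.13 and 0.97 without oFISC 1, oFISC 2, oQSC 1 and oQSC 2), Myf5 (0.0053, 0.57, 0.60 and 0.11), Myod1 (1.14, 0.43, 0.64 and 1.08), Ccnd1 (1.02, 0.40 and 0.48 without oFISC 2, oQSC 1 and oQSC 2), Atf3 (0.13) without oFISC 2, Hspa1a (0.17 and 0.015) without oFISC 2 and oQSC 2, and Spry1 (0.14) without oQSC 2. The cause of these changes was not tested.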
